A study of Mus musculus with 9 samples.

Results

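The unfolded protein response (UPR) genes described here were 10 genes of the endoplasmic reticulum (ER): the 3 stress sensors Ern1, Atf6 and Eif2ak3, the transcription factor Xbp1, and Herpud1, Sel1l, Syvn1, Edem1, Derl3 and Dnajb9, which act in the disposal of misfolded ER proteins. They were listed by name for their place in the pathway, with earlier results of these data known and with no measured value in the rule, and were found among 55487 genes in the gene count table. All 10 passed the filter on low counts, which kept 21049 genes. The 4 annotated transcripts of Xbp1 were described with them.

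The UPR is the set of pathways by which a cell senses unfolded proteins in the ER. IRE1 (Ern1) is a membrane kinase and endoribonuclease that cuts a short intron out of Xbp1 mRNA in the cytoplasm, and the spliced mRNA encodes an active transcription factor. ATF6 travels to the Golgi, is cleaved there and releases a transcription factor that drives ER chaperone and degradation genes, whereas PERK (Eif2ak3) phosphorylates the translation initiation factor eIF2 alpha, which slows protein synthesis while favouring translation of ATF4. ER-associated degradation (ERAD) passes misfolded proteins back to the cytoplasm for ubiquitination and destruction by the proteasome. Photoreceptors make large amounts of the glycoprotein rhodopsin, and misfolded rhodopsin is a known trigger of these pathways.

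Total RNA was sequenced from retinal explants taken at P28 from mice of the wild-type strain C57Bl/6J and cultured for 48 h with 5 mM glucose either without an inhibitor (control, 5 libraries) or with 20 mM 2-deoxyglucose (2-DG, 4 libraries). 2-DG is a glucose analogue that blocks glycolysis and is also known to interfere with N-linked glycosylation. Both groups shared the dissection, the culture, a final 1 h in Krebs' Ringer medium and the batch number given in the labels. The libraries are called biological replicates, but whether each came from its own animal is not given in the sources used here, so the p-values measure the spread between these libraries. A retina is a mixed tissue, in which fewer cells of a type and less RNA per cell cannot be told apart.

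The libraries held between 11318087 and 51802230 estimated counts, and a floor of 3 counts corresponded to between 0.0556 and 0.255 CPM (counts scaled to the library total after TMM adjustment). The floor covers counting error only. All 7 rod markers, rhodopsin among them, were measured, with summed levels of 4956 to 42060 CPM in controls and 7428 to 15650 CPM with 2-DG. Control replicate 2 held the highest rod sum, and vessel markers summed to 2017 CPM in control replicate 5 and 2512 CPM in 2-DG replicate 4, against 334.6 to 1089 CPM elsewhere. The 8 markers of the retinal pigment epithelium summed to 147 CPM in 2-DG replicate 3 and to between 3.14 and 26.8 CPM elsewhere, and the 6 Müller glia markers to between 1778 and 6473 CPM in controls and between 782 and 3013 CPM with 2-DG. No gene of the 21049 passed an adjusted p of 0.05 in edgeR's quasi-likelihood test with Benjamini-Hochberg adjustment, while 1526 genes (7.25%) had an unadjusted p under 0.05, DESeq2 called 267 genes and limma-voom with sample quality weights called 1222.

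The sequence on which the IRE1 arm turns is shown first, because its removal is the switch that IRE1 operates. The 26-base Xbp1 intron lies in the coding part of exon 4 of Xbp1-201, at chr11:5524279-5524304 on the + strand of GRCm38, and is given in capitals with 15 bases of exon on either side. It was located in the annotated transcript as the 26-base stretch between the paired cut sites of IRE1 whose removal lengthens the reading frame.
Xbp1 IRE1 intron: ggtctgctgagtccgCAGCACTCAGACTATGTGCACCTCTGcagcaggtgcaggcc
With the intron kept, the Xbp1-201 reading frame holds 267 codons, and with it removed the frame shifts and runs to 371 codons.

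The 10 genes had positive log2 fold changes of 2-DG over control, from 0.01 for Eif2ak3 to 1.72 for Derl3 with a median of 0.43, beside a median of -0.01 over all genes tested and 49.2% of genes with a positive value, though the sign turned for Ern1 (-0.02) and Eif2ak3 (-0.03) with library size only and for Ern1 (-0.55) and Atf6 (-0.05) with limma-voom. None of the 10 passed an adjusted p of 0.05, with adjusted values between 0.616 and 0.995 in edgeR. At an unadjusted p under 0.05, 4 of 10 were higher with 2-DG (Sel1l, Edem1, Derl3 and Herpud1) and 0 were lower, beside 2.42% of all genes higher. That count was 0 without 2-DG replicate 1, 1 without 2-DG replicate 2 and 1 with library size only, beside 1.62%, 1.82% and 1.39% of all genes in those fits. For Xbp1 alone, every 2-DG library lay above every control library, beside 1.52% of all genes that lay wholly higher and 1.41% wholly lower. With library size only in place of TMM scaling, the gene without overlap was Edem1 and not Xbp1. The 3 sensors had log2 fold changes between 0.01 and 0.21, and the 7 other genes between 0.26 and 1.72 with a median of 0.59.

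**Figure D1:**
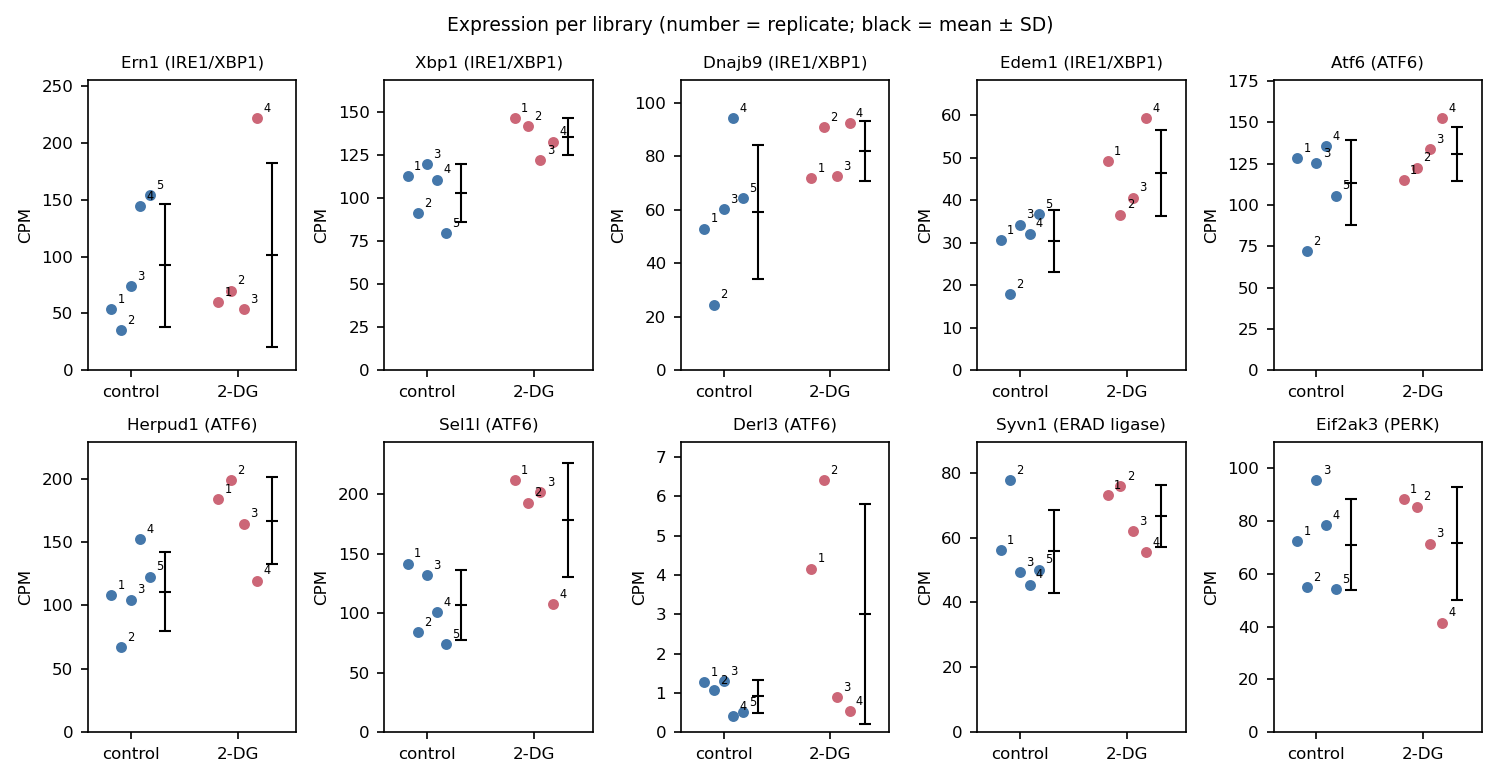
CPM of each gene (y axis, from 0) in the 5 control and 4 2-DG libraries, numbered by replicate, with the mean and SD of each group in black. The Xbp1 groups do not overlap under the TMM scaling plotted, Ern1 is highest in 2-DG replicate 4 at 222 CPM, and Derl3 is above its controls in 2-DG replicates 1 and 2 only.

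In the IRE1/XBP1 arm, Ern1 itself varied more between libraries than between groups. Ern1 (chr11:106394650-106487852, - strand) was at 53.6, 35.2, 73.9, 144 and 154 CPM in control replicates 1 to 5 and at 59.9, 70.1, 53.5 and 222 CPM in 2-DG replicates 1 to 4. Control replicates 4 and 5 and 2-DG replicate 4 were high, the other 6 libraries were low, and the groups overlapped. Ern1 differed by a log2 fold change of 0.14, standard error (SE) 0.54, with a 95% interval of -1.06 to 1.33 and an edgeR adjusted p of 0.962, and it was -0.60 without 2-DG replicate 4. The same 3 libraries held the highest levels of the endothelial cadherin Cdh5, at 474 CPM in control replicate 4, 861 CPM in control replicate 5 and 1346 CPM in 2-DG replicate 4, against 57.6 to 280.1 CPM in the others. Pecam1 and Cldn5 were likewise highest in control replicate 5 and 2-DG replicate 4, but of the other 5 vessel markers Kdr was lowest of the 9 libraries in 2-DG replicate 4, at 50.2 CPM, and Pdgfrb, Rgs5, Kcnj8 and Notch3 were there within the range of the others. The part of vessel cells in the Ern1 values was not tested.

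Xbp1 (chr11:5520659-5525893, + strand), the transcription factor whose mRNA IRE1 splices, was at 113, 91.1, 119.9, 111 and 79.7 CPM in control replicates 1 to 5 and at 147, 142, 122 and 133 CPM in 2-DG replicates 1 to 4. The lowest 2-DG library lay just above the highest control library, so the groups did not overlap under TMM scaling, whereas they overlapped with library size only. Mean levels were 103 ± 16.7 CPM (SD, n = 5) and 136 ± 10.8 CPM (SD, n = 4), a fold of 1.32 with a log2 fold change of 0.40, an SE of 0.19 and a 95% interval of -0.02 to 0.82 (edgeR unadjusted p = 0.0584, adjusted p = 0.698). Leaving out each library in turn moved the log2 fold change between 0.31 and 0.46.

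Dnajb9 (chr12:44205559-44210326, - strand) encodes ERdj4, an ER co-chaperone and a known XBP1 target that binds misfolded proteins and IRE1. It was at 52.9, 24.5, 60.3, 94.3 and 64.2 CPM in control replicates 1 to 5 and at 71.9, 90.8, 72.4 and 92.2 CPM in 2-DG replicates 1 to 4. The 2-DG libraries lay above 4 of 5 controls and below control replicate 4, and control replicate 2 was far lower than the rest. The log2 fold change was 0.47 (SE 0.32, edgeR adjusted p = 0.790), and it was 0.27 without control replicate 2.

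Edem1 (chr6:108828641-108859356, + strand), a mannosidase-like XBP1 target that hands misfolded glycoproteins to ERAD, was at 30.6, 17.9, 34.3, 32.2 and 36.7 CPM in control replicates 1 to 5 and at 49.2, 36.6, 40.6 and 59.4 CPM in 2-DG replicates 1 to 4. The groups touched at a single pair, control replicate 5 and 2-DG replicate 2, which were nearly equal. The fitted fold was 1.53, with a log2 fold change of 0.61, an SE of 0.25 and a 95% interval of 0.06 to 1.17 (edgeR unadjusted p = 0.0323, adjusted p = 0.656). When each library was left out in turn, the unadjusted p stayed under 0.05 in 5 of the 9 fits.

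In the ATF6 arm, the log2 fold change was 0.21 for the sensor and between 0.59 and 1.72 for the 3 ERAD genes grouped with it, with intervals that overlapped and no test of the difference. Atf6 (chr1:170704674-170867771, - strand) was at 128, 71.9, 126, 136 and 106 CPM in control replicates 1 to 5 and at 115, 122, 134 and 153 CPM in 2-DG replicates 1 to 4. The groups overlapped through most of their range, with control replicate 2 low and 2-DG replicate 4 high. The log2 fold change was 0.21 (SE 0.22, 95% interval -0.29 to 0.70, edgeR adjusted p = 0.853), it was 0.08 without control replicate 2, and it was -0.05 with limma-voom.

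Herpud1 (chr8:94386438-94395377, + strand), an ER membrane protein that organises the ERAD complex around the ubiquitin ligase, was at 108, 67.4, 105, 152 and 123 CPM in control replicates 1 to 5 and at 184, 199, 164 and 119.6 CPM in 2-DG replicates 1 to 4. 2-DG replicates 1 to 3 lay above every control, whereas 2-DG replicate 4 lay within the control range. Means were 111 ± 30.8 CPM (SD, n = 5) and 167 ± 34.4 CPM (SD, n = 4), with a log2 fold change of 0.59 (SE 0.26, 95% interval 0.01 to 1.16, edgeR unadjusted p = 0.0457, adjusted p = 0.689). The unadjusted p stayed under 0.05 in 2 of the 9 fits that each left out a library.

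Sel1l (chr12:91806043-91849157, - strand) is the adaptor that holds the ERAD ubiquitin ligase stable and brings substrates to it. It was at 142, 84.4, 132, 101 and 74.2 CPM in control replicates 1 to 5 and at 212, 193, 201 and 107 CPM in 2-DG replicates 1 to 4. As for Herpud1, 2-DG replicates 1 to 3 were above every control and 2-DG replicate 4 was not. The log2 fold change was 0.74, a fold of 1.67, with an SE of 0.28 and a 95% interval of 0.13 to 1.35, and its unadjusted p of 0.0215 was the lowest of the 10 genes (edgeR adjusted p = 0.616). The unadjusted p stayed under 0.05 in 6 of the 9 fits that each left out a library. Limma-voom with sample quality weights gave an adjusted p of 0.0240, in a fit that called 5.81% of all genes.

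Derl3 (chr10:75893413-75895941, + strand), a derlin of the ER membrane through which substrates leave the ER and a gene best known from secretory tissues, was the gene with the lowest level and the widest difference. It was at 1.27, 1.07, 1.30, 0.422 and 0.517 CPM in control replicates 1 to 5, from 15 to 33 estimated counts, and at 4.16, 6.41, 0.889 and 0.543 CPM in 2-DG replicates 1 to 4, from 19 to 206 counts. 2-DG replicates 1 and 2 were well above every control, and 2-DG replicates 3 and 4 were within the control range. The log2 fold change was 1.72 (SE 0.73, 95% interval 0.11 to 3.32, edgeR unadjusted p = 0.0381, adjusted p = 0.672), and it was 1.00 with an unadjusted p of 0.198 without 2-DG replicate 2. Every library was above the floor of 3 counts.

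Syvn1 (chr19:6046576-6053712, + strand) encodes HRD1, the ubiquitin ligase of the ERAD complex, and is a target of both XBP1 and ATF6. It was at 56.2, 77.7, 49.2, 45.5 and 50.1 CPM in control replicates 1 to 5 and at 73.1, 75.8, 61.9 and 55.4 CPM in 2-DG replicates 1 to 4. The highest value was in control replicate 2, and the other 4 controls were below or near the lowest 2-DG library. The log2 fold change was 0.26 (SE 0.21, 95% interval -0.21 to 0.72, edgeR adjusted p = 0.820), and it was 0.40 with an unadjusted p of 0.0379 without control replicate 2. It was 0.15 with an edgeR unadjusted p of 0.528 without control replicate 4, and 0.165 with upper-quartile scaling. Limma-voom with sample quality weights gave 0.55 and an adjusted p of 0.0437, in a fit that called 5.81% of all genes.

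The PERK arm was represented by its sensor. Eif2ak3 (chr6:70844515-70905245, + strand) was at 72.2, 55.0, 95.4, 78.2 and 54.3 CPM in control replicates 1 to 5 and at 88.1, 85.4, 71.3 and 41.5 CPM in 2-DG replicates 1 to 4. The highest library was a control, the lowest was 2-DG replicate 4, and the groups overlapped throughout. Means were 71.0 ± 17.2 CPM (SD, n = 5) and 71.6 ± 21.4 CPM (SD, n = 4), with a log2 fold change of 0.01 (SE 0.27, 95% interval -0.59 to 0.61, edgeR adjusted p = 0.995). The sign of this value turned with the scaling, with -0.06 under upper-quartile scaling.

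**Figure D2:**
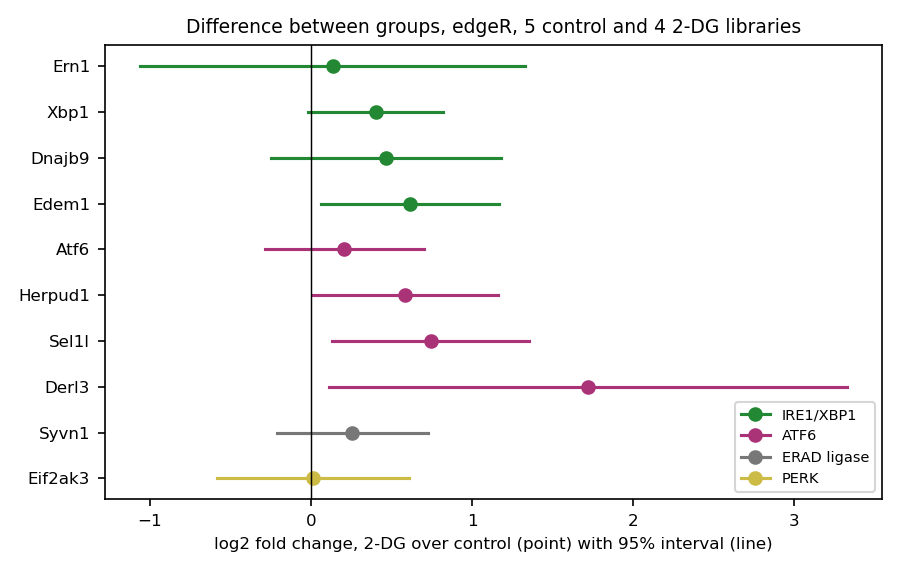
Log2 fold change of 2-DG over control (x axis) for each gene, with its 95% interval from edgeR as a line and the arm as the colour. The intervals of Edem1, Herpud1, Sel1l and Derl3 lie above 0 and the other 6 include it, and the Derl3 interval is the widest.

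Seen across libraries, the 10 genes did not move as a block. Control replicate 2, the library with the highest rod marker sum, was the lowest of the 9 for Ern1, Dnajb9, Edem1, Atf6 and Herpud1 but the highest for Syvn1. 2-DG replicate 4 was the highest of the 9 for Ern1, Edem1 and Atf6 and the lowest for Eif2ak3. Besides the counts without 2-DG replicates 1 or 2 given above, without control replicate 2, 3 of the 10 genes were higher at an unadjusted p under 0.05 (Edem1, Sel1l and Syvn1), beside 2.92% of all genes in that fit, and without 2-DG replicate 4, 3 were (Herpud1, Sel1l and Derl3), beside 3.38%. The mitochondrial share of counts was 10.7% in control replicate 2, 9.97% in control replicate 5 and 13.6% in 2-DG replicate 4, against at most 6.68% in the other 6 libraries. The part of the cell makeup and of the mitochondrial share of these libraries in the values was not tested.

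**Figure D3:**
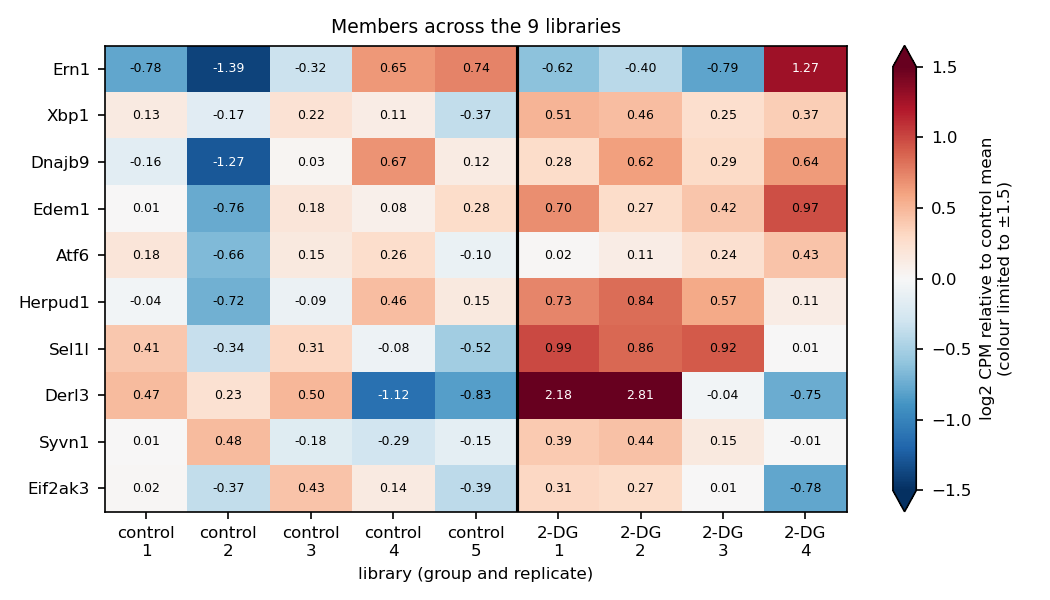
Log2 CPM of each gene (rows) in each library (columns) relative to the mean of the controls, with colour limited to 1.5 in either direction and the value printed in each cell. 2-DG replicates 1 and 2 are above the control mean for 9 of the 10 genes, with Ern1 the exception, and 2-DG replicate 4 is below both of them for Herpud1, Sel1l, Derl3, Syvn1, Eif2ak3 and Xbp1 and above both for Ern1, Edem1, Atf6 and Dnajb9.

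To contrast the arms within a library, where scaling cancels, 3 log2 ratios between the sensors' counts were compared by exact two-sided permutation tests, together with the ratio of Syvn1 to Sel1l, with Benjamini-Hochberg adjustment over the 4. The smallest p this design allows is 0.00794. The Ern1 to Eif2ak3 log2 ratio was 0.19 ± 0.95 (SD, n = 5) in controls and 0.29 ± 1.42 (SD, n = 4) with 2-DG, a difference of 0.10 (exact p = 0.889, adjusted p = 0.889). It was above 0 in control replicates 4 and 5 and in 2-DG replicate 4, at 0.89, 1.51 and 2.42, and between -0.64 and -0.28 in the other 6 libraries.

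The Atf6 to Eif2ak3 log2 ratio was 0.67 ± 0.26 (SD, n = 5) in controls and 0.92 ± 0.68 (SD, n = 4) with 2-DG, a difference of 0.25 (exact p = 0.548, adjusted p = 0.889). The Ern1 to Atf6 log2 ratio was -0.48 ± 0.77 (SD, n = 5) in controls and -0.63 ± 0.81 (SD, n = 4) with 2-DG, a difference of -0.15 (exact p = 0.802, adjusted p = 0.889). A shift between sensors was not detectable beside spreads of this size. The Syvn1 to Sel1l log2 ratio, the ligase against its adaptor, was -0.92 ± 0.56 (SD, n = 5) in controls and -1.38 ± 0.32 (SD, n = 4) with 2-DG, a difference of -0.47 (exact p = 0.198, adjusted p = 0.794), and the difference was -0.27 without control replicate 2.

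Between genes, levels were compared as CPM per kilobase of exon. The length joined the exons of all annotated transcripts of a gene, 3248 bases for Xbp1 and 2333 for Herpud1. The transcripts with most counts are shorter, at 2129 bases for Xbp1 and 1952 for Herpud1. Before division by length, Xbp1 was above Herpud1 in control replicates 1 to 3 and below it in control replicates 4 and 5. The order of Xbp1 and Herpud1 given below therefore depends on the length used. Whether the deposited gene counts had already been adjusted for transcript length is not given in the sources used here, and the order below would depend on it. In controls Herpud1 was the highest at 47.6 ± 13.2 CPM per kilobase (SD, n = 5), above Xbp1 at 31.7 ± 5.15 in 5 of 5 libraries, while Xbp1 was above Dnajb9 at 23.2 ± 9.81 in 3 of 5 and Dnajb9 above Sel1l in 4 of 5. Below them, Sel1l, Atf6, Eif2ak3, Syvn1 and Ern1 had means between 11.3 and 12.5 CPM per kilobase, and each of the first 4 stood above the next in 3 of 5 libraries, so their order is within the spread. Edem1 at 4.70 ± 1.14 was below Ern1 and above Derl3 at 0.460 ± 0.210 in 5 of 5 libraries. With 2-DG the first 5 places were held in the same order, led by Herpud1 at 71.5 ± 14.8 CPM per kilobase (SD, n = 4), and Eif2ak3 moved from place 6 to place 8.

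The annotation used here (GENCODE M21, GRCm38) has 4 transcripts of Xbp1: the coding Xbp1-201, Xbp1-203 and Xbp1-204 and the retained-intron transcript Xbp1-202. The 3 coding ones contain the 26-base intron, Xbp1-202 ends before it, and none of the 4 holds the spliced junction, so their counts do not separate spliced from unspliced Xbp1 mRNA. Of 142699 transcripts in the table, 141374 are in this annotation. Any Xbp1 transcripts outside it were not analysed here and are not counted in the shares below. Xbp1-201 was at 86.6, 83.3, 85.8, 99.2 and 79.8 transcript CPM in control replicates 1 to 5 and at 114, 113, 109.7 and 141 transcript CPM in 2-DG replicates 1 to 4. Each 2-DG library lay above each control, as for the whole gene. In the transcript fit the log2 fold change of Xbp1-201 was 0.46 (SE 0.19, edgeR unadjusted p = 0.0348, adjusted p = 1.00), and it was the only one of 33 tested transcripts of the 10 genes with an unadjusted p under 0.05, beside 1.17% of all transcripts higher and 2.28% lower. Transcripts whose 2-DG libraries all lay above the controls made up 0.898% of those tested.

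Of the counts of the annotated Xbp1 transcripts, Xbp1-201 held 84.6% ± 2.80 (SD, n = 5) in controls and 86.7% ± 2.75 (SD, n = 4) with 2-DG. The difference was 2.03 percentage points (exact two-sided permutation test, p = 0.302), and it was 0.848 points without 2-DG replicate 4. The share ran from 81.6% to 87.7% in controls and from 84.2% to 90.2% with 2-DG, so the groups overlapped. The 95% Wilson intervals of single libraries, which cover counting error only, had half-widths of at most 1.98 points. Xbp1-202, the retained-intron transcript, held 7.31% ± 1.38 (SD, n = 5) in controls and 6.29% ± 1.21 (SD, n = 4) with 2-DG. A shift in the makeup of the annotated Xbp1 transcripts was not detectable beside this spread.

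**Figure D4:**
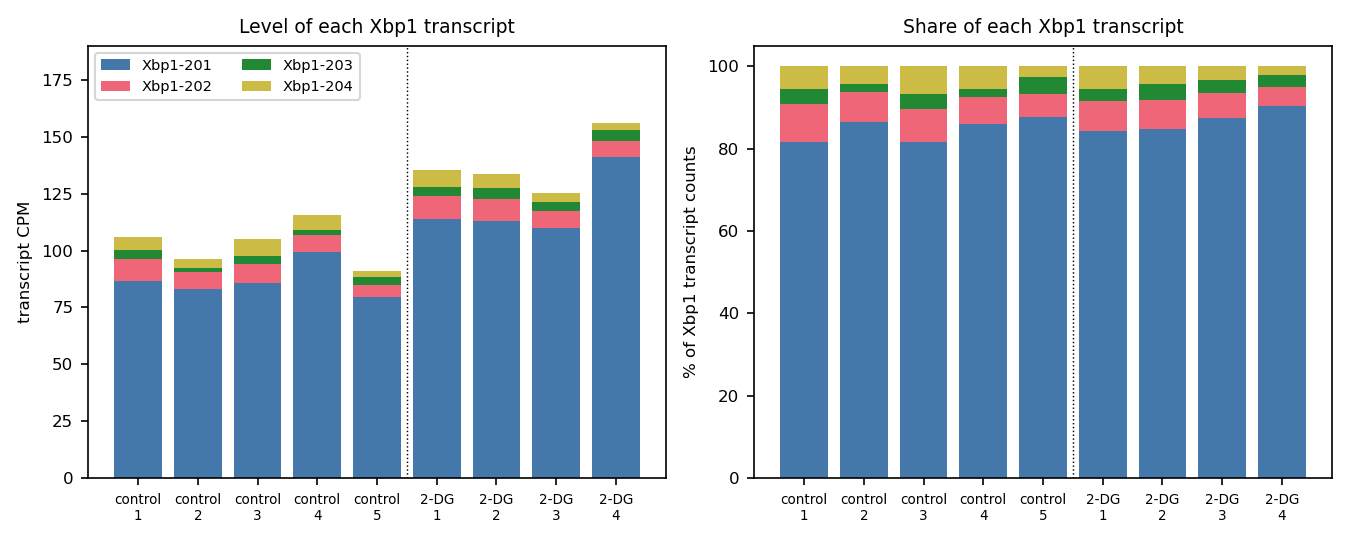
Level in CPM (left) and share of Xbp1 transcript counts in percent (right) of the 4 annotated Xbp1 transcripts, stacked for each library, with controls left of the dotted line. Xbp1-201 makes up 81.6% to 90.2% of the counts in every library, and its level is higher in each 2-DG library than in each control.

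For the transcripts of the other genes, Ern1-201 followed the gene, at 159 and 179 transcript CPM in control replicates 4 and 5, 259 in 2-DG replicate 4 and 36.7 to 65.4 in the others. The transcript Sel1l-201 was at 107, 25.5, 82.5, 92.1 and 84.1 transcript CPM in control replicates 1 to 5 and at 111, 119, 131 and 126 transcript CPM in 2-DG replicates 1 to 4. Its groups did not overlap, but in control replicate 2 a further 63.8 transcript CPM were assigned to Sel1l-210, a transcript with the same start and end that was at 0 to 2.71 in the other libraries, so the split between them is uncertain. Its log2 fold change was 0.63 (SE 0.36, edgeR unadjusted p = 0.105).

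The 10 genes were then set beside lists of the arms' other genes. In the IRE1/XBP1 list, 6 of 11 genes that are not among the 10 were higher at an unadjusted p under 0.05 and 0 were lower, with a median log2 fold change of 0.47. In the ATF6 list, 8 of 11 such genes were higher and 0 lower, with a median of 1.18, and in the PERK list 1 of 14 was higher and 0 lower, with a median of 0.25. Of the whole PERK list of 15, the count higher was 3 without control replicate 5, beside 2.40% of all genes, and 5 when the replicate number was also a term in the fit, beside 3.32%. The median of the 15 was 0.23 in edgeR with all libraries, 0.04 without control replicate 2, with 1 gene lower, and 0.05 without 2-DG replicate 4, with 2 lower, and 1 gene was lower with upper-quartile scaling and with library size only. With limma-voom the median of the 15 was -0.03. The background over all genes was 2.42% higher and 4.83% lower, with a median of -0.01. Over the 15 genes of each whole list, edgeR with all libraries called 0 at an adjusted p of 0.05. Of the ATF6 list it called 1 without control replicate 2 (0.0775% of all genes) and 2 without 2-DG replicate 4 (0.00946%), all higher. DESeq2, which called 0.719% of all genes, called 7 of the ATF6 list, 3 of the IRE1/XBP1 list and 1 of the PERK list, all higher. Limma-voom, which called 5.81% of all genes, called 9 of the ATF6 list and 5 of the IRE1/XBP1 list, all higher, and in the PERK list 1 higher and 2 lower. The lists were chosen with earlier results known, and no difference between them was tested. Genes were placed in an arm by name, and Dnajc3 stands in both the IRE1/XBP1 and the PERK list. Control of a gene by more than 1 arm was not examined, so the medians do not measure the activity of an arm.

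Of the ATF6 list, Pdia4, a protein disulfide isomerase of the ER, was at 48.9, 38.5, 52.7, 42.2 and 45.7 CPM in control replicates 1 to 5 and at 156, 188, 144 and 103 CPM in 2-DG replicates 1 to 4. The groups did not overlap, and its log2 fold change was 1.70 (SE 0.21, edgeR adjusted p = 0.181), the lowest adjusted p of all genes. Sdf2l1, an ER chaperone cofactor, was at 3.29 to 6.53 CPM in controls and at 35.4, 36.8, 22.6 and 7.72 CPM in 2-DG replicates 1 to 4, with a log2 fold change of 2.54 (SE 0.44, edgeR adjusted p = 0.380). As for Sel1l and Derl3, 2-DG replicate 4 was the lowest of the 2-DG libraries. The chaperones Hyou1 and Hsp90b1 and the secreted ER stress protein Manf had log2 fold changes of 1.18, 1.19 and 1.34, with groups that did not overlap and edgeR adjusted p-values of 0.300, 0.380 and 0.380.

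Of the IRE1/XBP1 list, the disulfide isomerase Pdia6 was at 142, 112, 152, 135 and 117 CPM in control replicates 1 to 5 and at 279.5, 328, 237 and 220.2 CPM in 2-DG replicates 1 to 4, without overlap. The co-chaperones Dnajc3 and Dnajb11 had log2 fold changes of 0.91 (SE 0.20) and 0.75 (SE 0.18), the COPI regulator Arfgap3 of 0.85 (SE 0.24) and the translocon subunit Sec61b of 0.87 (SE 0.28), with edgeR adjusted p-values between 0.494 and 0.554. Groups of Dnajc3, Dnajb11 and Arfgap3 did not overlap, whereas those of Sec61b did.

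In the PERK list, Dnajc3 was the gene that was higher at an unadjusted p under 0.05. It encodes p58IPK, an inhibitor of PERK, and it also stands in the IRE1/XBP1 list. Atf4 and Ddit3, transcription factors downstream of PERK, had log2 fold changes of 0.11 (SE 0.38, edgeR adjusted p = 0.960) and 0.19 (SE 0.28, edgeR adjusted p = 0.889), with overlapping groups. The values of the list ran from -1.16 for the transcription factor Atf3 and -0.88 for the phosphatase subunit Ppp1r15a to 0.70 for Nupr1, 0.76 for the asparagine synthetase Asns and 0.91 for Dnajc3. These genes other than Dnajc3 were named after their values were seen, and none of them had an unadjusted p under 0.05. Of the 6 mRNAs listed as substrates of regulated IRE1-dependent decay (RIDD), the wider RNase activity of IRE1, 0 passed an unadjusted p of 0.05 in either direction in edgeR, with a median log2 fold change of -0.38. By limma-voom 2 of these were lower at an unadjusted p under 0.05, beside 15.4% of all genes, and 1 passed the adjusted threshold, beside 5.81%. In edgeR 1 was lower without control replicate 2 and without 2-DG replicate 4, beside 6.07% and 9.49% of all genes. The median of the 6 was -0.19 in edgeR without 2-DG replicate 1 and -0.20 with limma-voom.

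The ERAD machinery list held 32 genes, all tested, of which 7 were higher at an unadjusted p under 0.05 and 0 lower, with a median log2 fold change of 0.23, beside 2.42% of all genes higher and 4.83% lower. Besides 4 of the 10 genes, these were 3 of the other 27. Os9, the lectin that reads trimmed glycans for the ubiquitin ligase complex, was at 89.0, 77.0, 72.4, 60.6 and 72.0 CPM in control replicates 1 to 5 and at 125, 123, 111 and 99.5 CPM in 2-DG replicates 1 to 4. Its groups did not overlap, with a log2 fold change of 0.63 (SE 0.18, edgeR adjusted p = 0.524). Selenos, a selenoprotein that links derlins to the extraction machinery, had a log2 fold change of 0.53 (SE 0.18, edgeR adjusted p = 0.588), also without overlap. Without 2-DG replicate 1 or without 2-DG replicate 2, 2 of the 32 genes were higher in place of 7, beside 1.62% and 1.82% of all genes in those fits. With library size only 3 were higher, beside 1.39%, and with upper-quartile scaling 4, beside 1.53%.

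**Figure D5:**
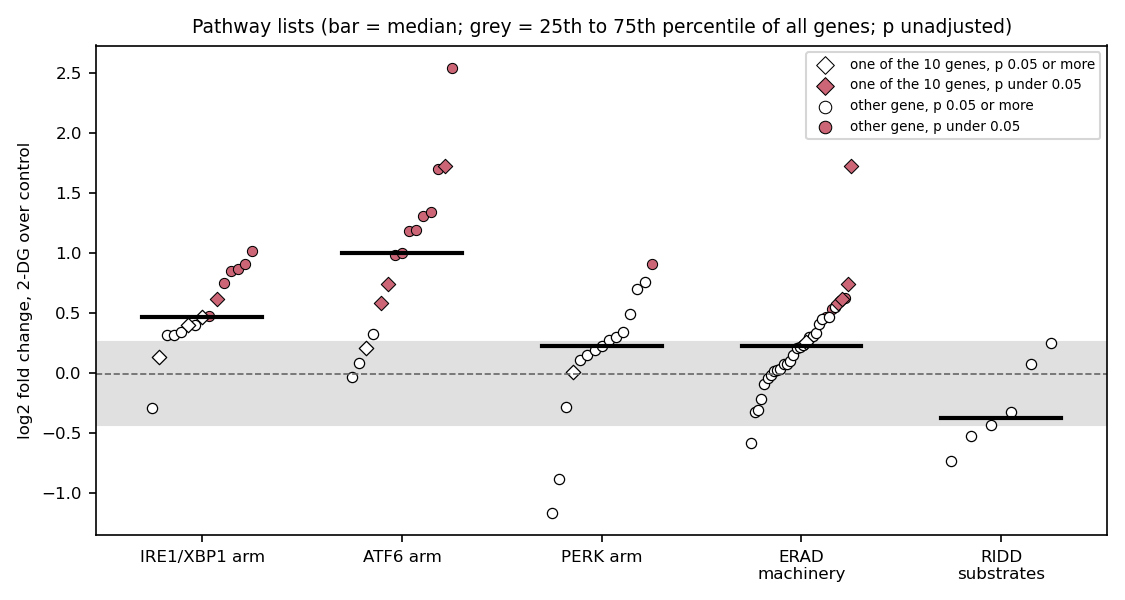
Log2 fold change of 2-DG over control (y axis) for each gene of 5 lists, with diamonds for the 10 genes, circles for others, filled symbols for an unadjusted p under 0.05, a bar at the median, and grey from percentile 25 to percentile 75 of all genes tested (-0.43 to 0.26). The list medians are 0.47, 1.00, 0.23, 0.23 and -0.38 from left to right.

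By Pearson's correlation of log2 CPM over the 9 libraries, given as a description over libraries that share 2 groups, the genes whose pattern was most like that of Xbp1 were Tent4b (r = 0.971), Eif4g2 (r = 0.959) and Cog3 (r = 0.959). For Herpud1 they were Ttk (r = 0.940), Gipc3 (r = 0.936) and Atp10d (r = 0.930). None of these 6 is in the lists of the arms.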

How the data were processed

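Total RNA (4 ng, 13 PCR cycles, 101-base read pairs) from 5 control and 4 2-DG retinal explants was quantified by the authors. The submitters' processing notes name kallisto and GRCm38, and settings and annotation release are not given in the sources used here. The deposited gene and transcript tables hold estimated counts, which were rounded to whole numbers. Gene counts are not sums of transcript counts. A deposited table of scaled CPM (signal, 12568 genes kept by the authors, without Derl3) served 1 added alternative. The deposited table of the authors' comparison (log2 fold changes, F, p-values) was not used.

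Genes were named from GENCODE M21 (55141 of 55487 IDs matched). edgeR 4.0.16 (R 4.3.3; filterByExpr, TMM, legacy quasi-likelihood fit, group only) was fitted over all 21049 genes and, separately, 62900 transcripts, with Benjamini-Hochberg adjustment. The SE was computed from the log2 fold change and its F statistic. CPM uses TMM library sizes of 11318087 to 51802230 counts before scaling. Ratios (0.5 added to each count) and shares were tested by exact permutation over 126 arrangements, and scipy 1.17.1 gave the Wilson intervals. DESeq2 1.42.0 and limma 3.58.1 were alternatives, with other scalings, filters, a replicate block and each library left out. The code was tested on simulated data.

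The members and lists were chosen with earlier results of these data known. Named were all 10 members, up to 5 genes per list by smallest unadjusted p under 0.05, and the 3 genes most correlated with Xbp1 and with Herpud1, and, outside this rule and after their values were seen, 6 PERK list genes and single marker genes. The Xbp1 sequence was read from the GENCODE M21 transcript. Promoter motifs and protein sequences were not used here.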

Additional observations from a re-analysis of the deposited data

Results flagged for a closer look

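The Ern1 level of 2-DG replicate 4, 222.1 CPM, stood far from the other 3 2-DG libraries, which lay between 53.5 and 70.1 CPM. The Ern1 to Eif2ak3 log2 ratio of the same library, 2.42, stood apart likewise, against -0.56 to -0.28 in the other 3. Both share the Ern1 count of that library and are 1 event. Of 30 groups of values examined by Dixon's test at the 95% level these 2 stood out, and chance alone gives about 1 in 20. That library also held the highest vessel marker sum, 2512 CPM, carried by Cdh5, Pecam1 and Cldn5 while Kdr was at its lowest there (50.2 CPM), and the part of vessel cells in its Ern1 value was not tested.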

How the results depend on the processing

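The number of genes past an adjusted p of 0.05 was 0 in the main edgeR fit, 1 with the non-legacy quasi-likelihood fit, 267 with DESeq2, 1222 with limma-voom and 0 to 16 when each library was left out (16 without control replicate 2, 2 without 2-DG replicate 4). Of the 10 genes, limma-voom with quality weights called 2, Sel1l (0.86) and Syvn1 (0.55), beside 5.81% of all genes. The other alternatives called 0. The count of members higher at an unadjusted p under 0.05, 4 in the main fit, was 2 under upper-quartile scaling (1.53% of all genes in the same fit), 1 with library size only (1.39%), 1 with limma-trend on the deposited CPM (1.86%, chosen after seeing the data), 5 with DESeq2 (2.03%), 6 with limma-voom (10.6%) and 0 to 4 with a library left out (1.35% to 3.38% of all genes; 0 and 1 when the library was 2-DG replicate 1 or 2-DG replicate 2, in that order, and 2 for control replicate 1, control replicate 5 or 2-DG replicate 3). The count of members without overlap was 2 with no filter (1.11% of all genes), DESeq2 scaling (1.07%) or transcript sums (1.53%), and 1 to 3 with a library left out (1.64% to 4.62%), 3 without 2-DG replicate 4 and 2 without control replicates 4 or 5 or 2-DG replicates 1, 2 or 3. With library size only the count stayed at 1 (0.86%), but the gene was Edem1 in place of Xbp1. Upper-quartile scaling moved the median of all genes to -0.09.

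Signs turned for Eif2ak3, Ern1, Atf6 and 3 of the 4 ratios. Eif2ak3 was -0.062 with upper-quartile scaling, -0.026 with library size only, -0.029 with at least 10 counts, -0.10 with the deposited CPM, and -0.10 to 0.20 with a library left out. Ern1 was -0.016 with library size only, -0.55 with limma-voom, -0.006 with the deposited CPM, and -0.60 to 0.39 with a library left out, negative without control replicate 1, control replicate 2 or 2-DG replicate 4. Atf6 was -0.054 with limma-voom. The Ern1 to Eif2ak3 ratio difference ran from -0.61 to 0.43 with a library left out and was -0.0087 with transcript sums, the Atf6 to Eif2ak3 one from -0.0706 to 0.43, negative without 2-DG replicate 4, and the Ern1 to Atf6 one from -0.54 to 0.11, positive without control replicate 5 or 2-DG replicate 3. The cause of these changes was not tested.

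Same-numbered deviations correlated at 0.45, -0.16, 0.10 and 0.20, and those of other pairs ran from -0.689 to 0.717. 2-DG replicate 1 correlated best with control replicate 1, but not every library correlated best with its own number. Whether the replicate numbers pair the libraries cannot be told from these values. With the replicate block, which drops control replicate 5, 0 genes passed the adjusted threshold. At an unadjusted p under 0.05, 2 members (Edem1 and Sel1l) were higher (3.32% of all genes), and 2 did not overlap (2.16% of all genes). The same 8 libraries without the block also gave 2 members higher (2.40% of all genes). With the block Eif2ak3 was -0.11 and the Ern1 to Atf6 difference 0.11. In that fit 5 PERK list genes were higher (3.32% of all genes), against 3 without the block and without control replicate 5 (2.40%). Depth limits Derl3 most, with 15 to 206 counts per library.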
